A study of Drosophila melanogaster with 54 samples.

Results

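Mesodermal cells carrying an activated form of the transcription factor Pointed were compared directly with mesodermal cells carrying activated Ras, using the arrays whose titles read Pnt gain of function and Ras gain of function in the numbered set 2. The comparison holds 6 of the 54 samples of the series, 3 arrays per group. Affymetrix DrosGenome1 arrays measured the RNA of cells sorted from embryos of Drosophila melanogaster, and the deposited values are log2 levels per probe set. All groups compared here came from embryos aged 5.5 to 7.5 h after egg deposition at 25 °C, in which Twi-GAL4 drove UAS-GFP, and were collected by fluorescence-activated sorting. They are GFP-positive cells, apart from a wild type GFP-negative group that serves to check the sort. The Pnt cells also carried UAS-PntP2VP16, in which the VP16 activation domain is joined to the P2 form of Pointed. The Ras cells carried UAS-Ras1Act. Cells of the Arm+Ras group carried UAS-Arms10 together with UAS-Ras1Act and those of the Arm group carried UAS-Arms10 alone, while the wild type cells carried only the driver and GFP. Because Twi-GAL4 drives every transgene, each factor was switched on throughout the mesoderm and not in selected progenitors, and PntP2VP16 is a constitutively active fusion and not the natural protein. The fit also held the arrays titled Tkv gain of function and wg loss of function, of the same age and temperature. In the main fit these added only to the shared estimate of the spread.

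Ras relays signals from the EGF and FGF receptors through the kinases Raf, MEK and MAPK. MAPK phosphorylates the ETS factor Pointed P2, which then activates target genes, and it removes the ETS repressor Yan, the product of aop, from the nucleus. Ras has other outputs as well, so activated Pointed stands for the transcriptional end of the pathway and activated Ras for its start. In the embryonic mesoderm, Ras signalling helps to single out the progenitors of muscle founder cells, which give each muscle its identity, from the fusion-competent myoblasts that later fuse with them.

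The genes that encode Pointed, Ras and Armadillo were not analysed here, so the transgenes themselves do not check the labels. The sort was checked on wild type cells, where lmd averaged 8.18 in GFP-positive and 5.11 in GFP-negative cells, Him 7.86 and 4.70, and twi 6.31 and 3.74, while the ectodermal gene en averaged 5.97 and 7.48. Array medians were 4.213 to 4.232 on the Pnt arrays and 4.252 to 4.258 on the Ras arrays. Correlations over all probe sets were 0.906 to 0.918 among the Pnt arrays and 0.927 to 0.934 among the Ras arrays, against 0.891 to 0.916 between a Pnt and a Ras array. In every group of set 2 the array with the letter B had a mean of 2.34 to 3.59 for the spiked poly-A controls, against 7.06 to 12.18 on the arrays with the letters A and C, so Pnt and Ras each hold 1 such array. No label states that the arrays of a group came from separate collections of embryos, so the p-values measure the spread between these samples, which may be technical, and 3 arrays per group limit the precision.

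Of 13966 probe sets, 1365 were called between Pnt and Ras (9.77%), at an adjusted p under 0.05 in limma with Benjamini-Hochberg adjustment over all probe sets. In Pnt cells 573 were higher (4.1%) and 792 lower (5.67%). The lower ones went further: 350 were at least 2-fold lower, whereas 134 were at least 2-fold higher. Per gene, 493 genes were called higher and 610 lower out of 10844. The arrays of the 2 groups did not overlap for 1343 of the called probe sets, which stand beside 3627 non-overlapping probe sets in all (26% of those tested). The same fit called 8.85% of probe sets for Pnt minus wild type and 4.59% for Ras minus wild type. These 2 comparisons share their wild type arrays, so their values are only set side by side below.

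**Figure D1:**
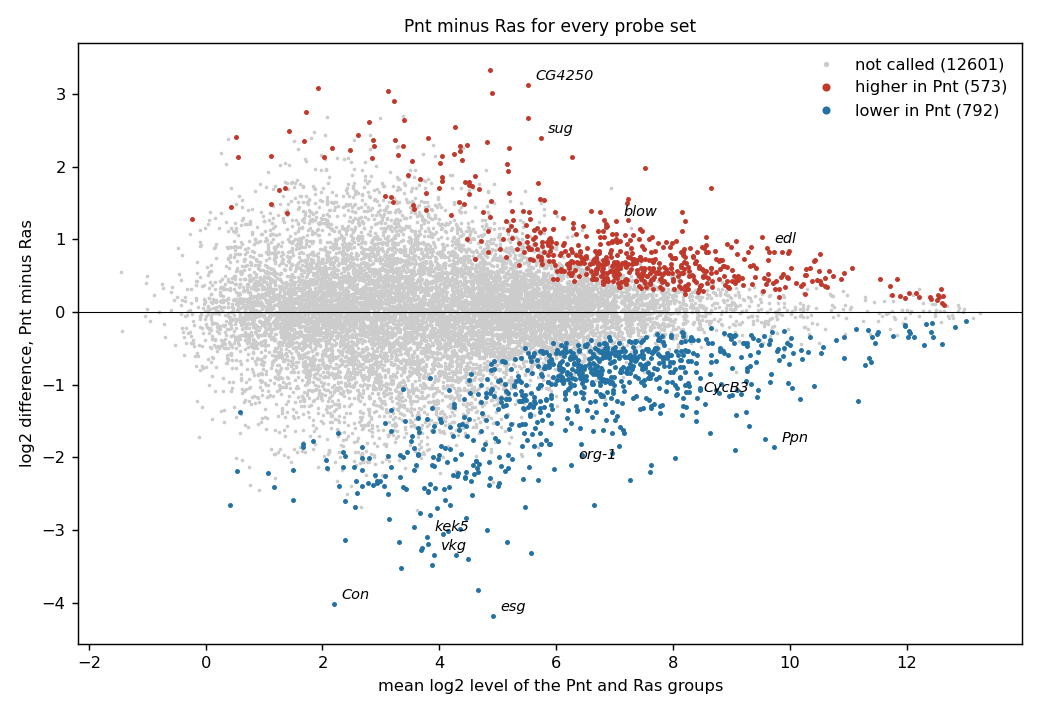
Log2 difference, Pnt minus Ras, of every probe set against its mean log2 level over the 2 groups. Red points are the 573 probe sets called higher in Pnt, blue points the 792 called lower and grey points those not called, and the largest differences lie on the blue side and at low levels.

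The direction of the calls moved with the length of the genes. Genes called higher in Pnt had a median span of 1216 bases from start to end in RefSeq, introns included, and genes called lower had a median span of 4887 bases, against 2385 bases over all 10799 genes with a span. With the genes in 4 equal groups by span, 288 were higher and 37 lower in the group with the shortest spans, and 22 were higher and 273 lower in the group with the longest. Median differences in these groups were 0.18 and -0.17 on the log2 scale. The part of span in these calls was not tested as a cause, but an alternative chosen after seeing the data removed each array's trend on span and level before the fit. It called 471 probe sets higher and 452 lower, 739 of which were among the 1365, and it kept the calls of 67 of the 90 called genes named by rule. Removal of the trend on span alone, also chosen after seeing the data, kept the calls of 77 of the 90. Below, the span adjustment is the fit with the trends on both span and level removed. Its p is given as the span-adjusted p for genes that lost their call under it. Of the 90 called genes named by rule, 28 also lost their call in a fit without 1 of the 6 arrays, and the highest adjusted p is given for these.

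**Figure D2:**
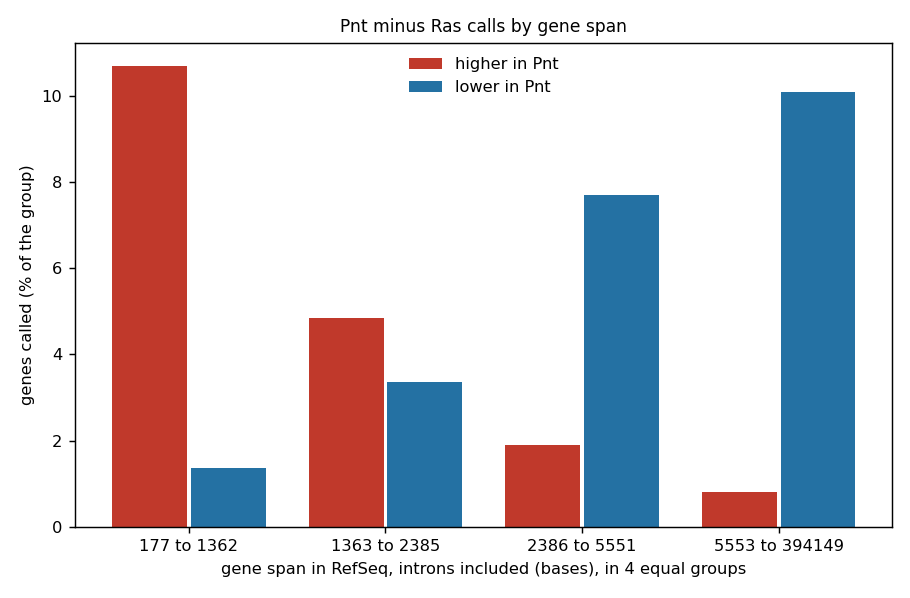
Share of genes called higher in Pnt (red) and lower in Pnt (blue), in percent, in 4 equal groups of genes ordered by span in bases. Higher calls make up 10.7% of the genes with the shortest spans and 0.815% of those with the longest, and lower calls 1.37% and 10.1% of the same groups.

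Control probe sets for the 3′ and 5′ ends of an mRNA also differed between the groups. The actin difference, 3′ minus 5′, was 1.23, 1.27 and 1.16 on the Pnt arrays against 0.77, 0.82 and 0.68 on the Ras arrays, while that of eIF-4a was 2.19, 2.10 and 2.14 on the Pnt arrays against 2.27, 2.28 and 2.24 on the Ras arrays. Neither overlapped, and the 2 controls differed in opposite directions. With the eIF-4a difference as a covariate 1421 probe sets were called. With the actin difference as a covariate, an alternative also chosen after seeing the data, only 10 were called, 9 of them among the 1365, and the median standard error was 1.19 in place of 0.47. The probe sets assigned to the actin genes Act79B and Act87E were themselves called lower in Pnt, at -0.67 and -0.56. Both carry the suffix _f_at, so their values may not be specific to these genes. The actin control and the group cannot be told apart on these arrays, and every call below holds for the fit without it. On the wild type GFP-positive arrays the actin difference was 0.88, 0.88 and 1.00, between those of Ras and Pnt without overlap. The same limit therefore holds for the comparisons with wild type, for which neither a span-adjusted nor an actin-adjusted value is given.

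In the list drawn up for targets and feedback regulators of the Ras pathway, edl was the only member higher in Pnt and 3 members were lower, out of 14 measured. The median difference of the list was -0.41, beside 0.02 over all genes, and after the span adjustment it was -0.05, with 1 member higher and 1 lower. 28.6% of the list was called, beside 10.2% of all genes. edl encodes a protein with a SAM domain and no DNA-binding domain that binds Pointed P2 and Yan. Its levels were 10.03, 10.15 and 9.99 on the Pnt arrays, against 9.15, 9.15 and 9.21 on the Ras arrays and 7.98, 8.02 and 8.01 on the wild type arrays. The 3 groups formed 3 tight steps without overlap. The difference between Pnt and Ras was 0.88 ± 0.10 (SE, adjusted p = 2.2e-06), and edl rose against wild type by 2.06 in Pnt and by 1.17 in Ras.

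aop, the gene of the repressor Yan, had the opposite order of Pnt and Ras. It measured 9.04, 8.73 and 8.87 in Pnt cells, against 9.81, 9.5 and 9.64 in Ras cells and 8.23, 7.79 and 7.88 in wild type cells. Both transgenes were above wild type on every array and Ras lay highest. The difference of -0.77 ± 0.14 between Pnt and Ras had an adjusted p of 0.000722 and a span-adjusted p of 0.159. Of the 7 ETS family genes measured, aop and edl were the only ones called between Pnt and Ras, which is 28.6%, beside 10.2% of all genes.

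sprt was at 6.12, 6.07 and 6.38 in Pnt, against 7.34, 7.25 and 7.36 in Ras and 6.56, 6.22 and 6.55 in wild type. Only the Ras arrays stood apart, and the difference between Pnt and Ras was -1.13 ± 0.12 (adjusted p = 1.78e-06). sprt was the only member still lower after the span adjustment (-0.72, adjusted p = 0.000849). Its place in the list was not checked, so that lower call may not concern a Ras target. ed, which encodes the adhesion molecule Echinoid, an antagonist of EGFR signalling, was lower in Pnt, with a difference of -0.62 ± 0.17 (adjusted p = 0.0214). That call was lost without the Pnt array 2C (adjusted p = 0.13) and under the span adjustment (adjusted p = 0.822), although another probe set of ed was also called lower, at -2.36.

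Several well known feedback genes were not called between Pnt and Ras. sty, which encodes the intracellular inhibitor Sprouty, measured 6.93, 7.22 and 7.0 in Pnt cells and 7.54, 7.67 and 7.51 in Ras cells. Its groups did not overlap, but the difference of -0.53 ± 0.20 had an adjusted p of 0.124. aos, the gene of the secreted EGFR inhibitor Argos, measured 4.48, 4.40 and 1.75 in Pnt cells and 4.84, 4.38 and 4.54 in Ras cells, with 1 Pnt array far below the others (adjusted p = 0.467). kek1, which encodes another EGFR inhibitor, differed by 0.01 ± 0.51 at a low level. Mkp3, the gene of a MAPK phosphatase, averaged 6.22 in Pnt and 6.23 in Ras, and was called above its wild type mean of 5.36 in both comparisons.

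Among the EGFR ligands, receptor, proteases and inhibitors 3 of 13 measured members were lower in Pnt and none higher, with a median of -0.09. That is 23.1% of the list, beside 10.2% of all genes. After the span adjustment 2 were lower and 1 higher, with a median of 0.04. S, the gene of Star, which carries the ligand precursor through the secretory pathway, measured 6.19, 6.26 and 5.90 in Pnt, against 7.22, 6.92 and 7.18 in Ras and 6.32, 6.10 and 6.24 in wild type. Only Ras stood apart from wild type, and the difference between Pnt and Ras was -0.99 ± 0.13 (adjusted p = 2.39e-05). kek5, a member of the Kekkon family of membrane proteins, was at 3.19, 1.87 and 1.67 in Pnt, against 5.30, 5.53 and 5.18 in Ras and 4.08, 4.90 and 4.84 in wild type. Here it was Pnt that lay below wild type, and Pnt minus Ras was -3.09 ± 0.45, 8.53-fold (adjusted p = 6.7e-05). Egfr itself was lower in Pnt at -0.55 (adjusted p = 0.0475), a call lost without the Pnt array 2C (adjusted p = 0.221) and with a span-adjusted p of 0.828. spi, the gene of the main ligand, averaged 9.48 in Pnt and 9.63 in Ras (adjusted p = 0.157), and its difference of -0.15 became 0.28 under the span adjustment (adjusted p = 0.0165).

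Of 10 genes of the cascade and its adaptors, 14-3-3zeta and msk were lower in Pnt, which is 20%, beside 10.2% of all genes. None of the list was called after the span adjustment. The product of 14-3-3zeta binds Raf, and its levels of 9.64, 9.51 and 9.48 in Pnt lay below 10.04, 9.94 and 10.17 in Ras (difference -0.51 ± 0.07, adjusted p = 2.39e-05), with a span-adjusted p of 0.824. msk, which encodes an importin that carries MAPK into the nucleus, differed by -0.77 (adjusted p = 0.00223), with a span-adjusted p of 0.0868. Of 6 genes of the FGF pathway, htl was lower and no other was called, which is 16.7%, beside the same 10.2%. htl, the gene of the FGF receptor of the mesoderm, measured 6.11, 5.59 and 5.33 in Pnt, against 7.26, 6.96 and 6.85 in Ras and 5.69, 5.50 and 4.96 in wild type. The Ras arrays were all above those of the other groups, with a Pnt minus Ras difference of -1.35 ± 0.32 (adjusted p = 0.00744).

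**Figure D3:**
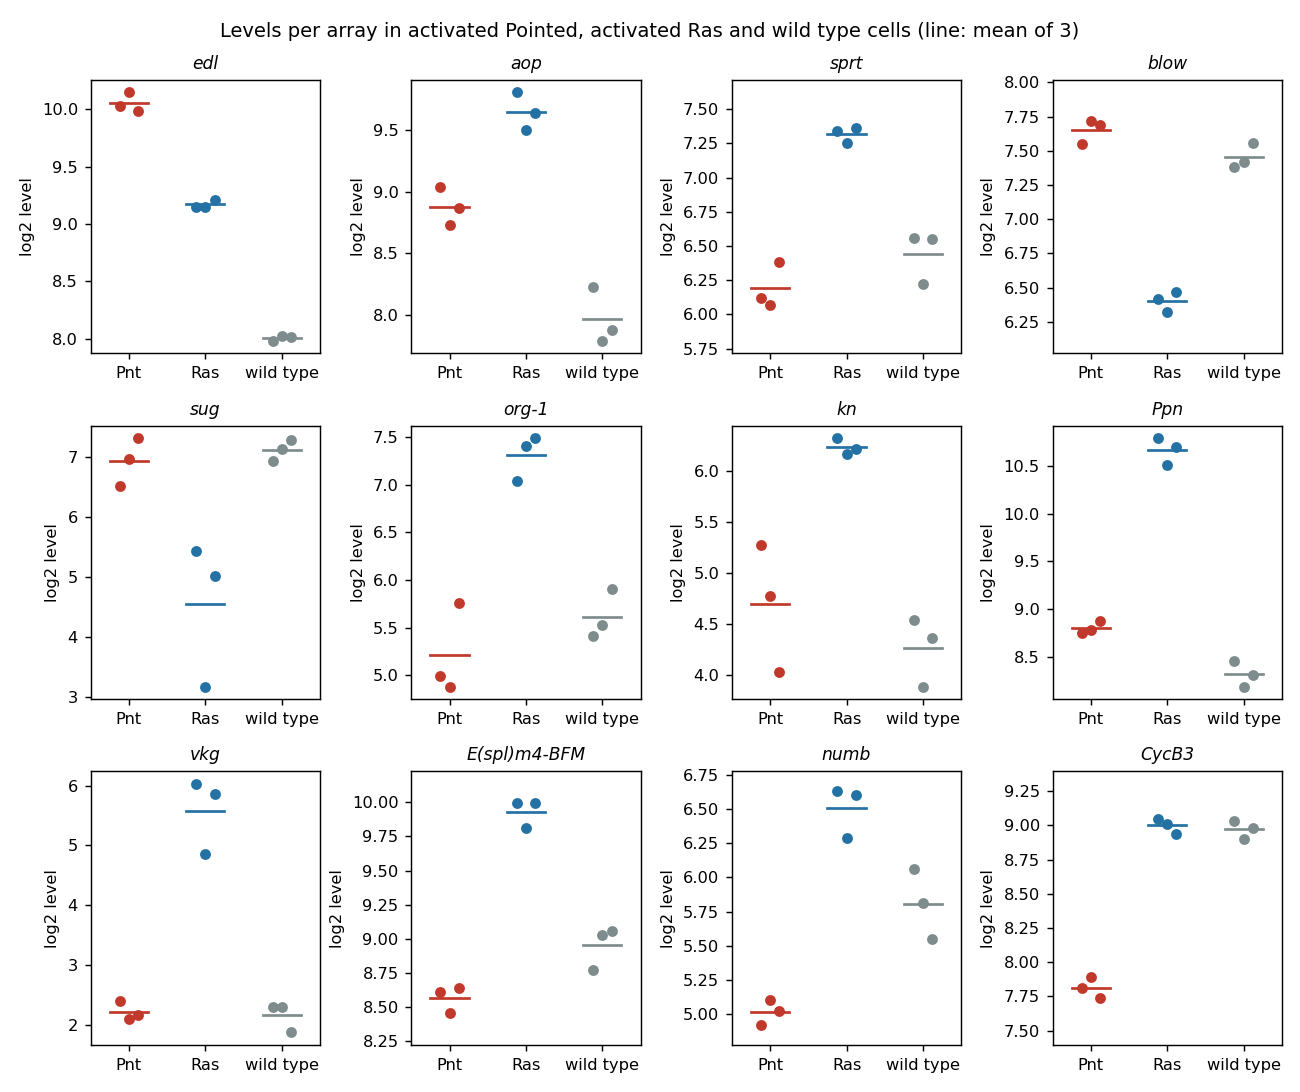
Log2 levels of 12 genes on each array in Pnt (red), Ras (blue) and wild type (grey) cells, where a point is an array, a line is the mean of 3, and each panel has its own axis. Pnt lies above both other groups for edl and below both for CycB3, while Ras alone lies apart from the others for sprt, blow, sug, org-1, kn and vkg.

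Founder cell and muscle identity genes were lower in Pnt than in Ras where they were called: 6 of 27 measured were lower and none higher, with a list median of -0.50. That is 22.2% of the list, beside 10.2% of all genes, and the median span of the list was 15185 bases. After the span adjustment 4 were lower and 1 higher, with a median of -0.28. Only 4 of the 27 differences were positive, called or not. The mean level of the list was 3.84 to 4.46 on the Pnt arrays, 4.84 to 4.99 on the Ras arrays and 4.30 to 4.44 on the wild type arrays. In whole-population RNA of this kind, fewer cells of a type and less RNA per cell cannot be told apart.

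org-1, which encodes a T-box factor of specific muscle founders, measured 4.99, 4.88 and 5.76 in Pnt, against 7.04, 7.41 and 7.49 in Ras and 5.41, 5.53 and 5.90 in wild type. Pnt overlapped wild type, Ras stood above both, and the difference between Pnt and Ras was -2.10 ± 0.31, 4.29-fold (adjusted p = 6.47e-05). kn, the gene of the muscle identity factor Collier, had 5.27, 4.78 and 4.03 in Pnt, against 6.32, 6.16 and 6.21 in Ras and 4.54, 3.89 and 4.37 in wild type. It showed the same arrangement, with a difference of -1.54 ± 0.29 (adjusted p = 0.00123). jumu, which encodes a forkhead factor, was also raised only in Ras, by 0.60 against wild type (adjusted p = 0.0145), and differed by -0.79 between Pnt and Ras (adjusted p = 0.000638), with a span-adjusted p of 0.0975.

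Con and Dr were called below wild type in Pnt and not in Ras. Con, which encodes the muscle adhesion protein Connectin, measured 1.60, -0.31 and -0.71 in Pnt, against 4.49, 3.92 and 4.22 in Ras and 3.57, 3.25 and 2.91 in wild type. Dr, the gene of the muscle homeobox factor Msh, had 4.58, 1.94 and 3.69 in Pnt, against 5.10, 5.03 and 4.82 in Ras and 6.04, 5.67 and 5.63 in wild type. The Ras arrays of Dr also lay below wild type without overlap (-0.80, adjusted p = 0.377). Pnt minus Ras was -4.02 ± 0.92 for Con (adjusted p = 0.00582) and -1.58 ± 0.40 for Dr (adjusted p = 0.0138), and Dr lost its call without the Pnt array 2B (adjusted p = 0.0545) and had a span-adjusted p of 0.0524. slou, another homeobox identity gene, was at 5.15, 2.44 and 2.49 in Pnt and 5.27, 5.75 and 5.65 in Ras, so the Pnt array 2A nearly reached the Ras arrays. Its difference was -2.20 ± 0.59 (adjusted p = 0.0195), and the call was lost without the Pnt array 2B (adjusted p = 0.113).

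Other founder genes were not called between Pnt and Ras. kirre, which encodes the founder cell adhesion receptor, measured 1.76, 1.69 and 1.85 in Pnt and 2.18, 3.99 and 2.20 in Ras (difference -1.03 ± 0.49, adjusted p = 0.253). eve, the gene of a homeobox factor of dorsal muscle and pericardial progenitors, averaged 6.34 in Pnt and 6.46 in Ras, above 5.74 in wild type in both comparisons. Ndg, the nidogen gene, averaged 8.51 in Pnt and 7.98 in Ras against 6.91 in wild type, and was called above wild type in both. The difference between Pnt and Ras was 0.53 for Ndg (adjusted p = 0.196), and the span adjustment made it a call, at 0.88 (adjusted p = 0.0229).

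The list of fusion-competent myoblast and fusion genes split, with 3 of 13 measured members higher in Pnt and 4 lower. That is 53.8% of the list, beside 10.2% of all genes, and the list median was -0.27. After the span adjustment 3 were higher and 2 lower, with a median of 0.08. The lower members of both fits include gcm, which is also in the hemocyte list below, so these counts are not of fusion genes alone. blow, which encodes the fusion protein Blown fuse, measured 7.55, 7.72 and 7.69 in Pnt, against 6.42, 6.32 and 6.47 in Ras and 7.38, 7.42 and 7.56 in wild type. Pnt lay beside wild type and all Ras arrays lay below both, with a fall by 1.05 in Ras against wild type (adjusted p = 9.88e-07). Pnt minus Ras was 1.25 ± 0.10, 2.37-fold (adjusted p = 4.2e-08). sug, the gene of a Gli-related zinc finger factor, had 6.51, 6.96 and 7.31 in Pnt, against 5.43, 3.17 and 5.02 in Ras and 6.92, 7.13 and 7.27 in wild type. It too was low only in Ras, with a difference of 2.39 ± 0.62 (adjusted p = 0.0144), and its call was lost without the Ras array 2B (adjusted p = 0.11).

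Crk, which encodes an adaptor protein, was above wild type in both groups: 9.49, 9.08 and 9.02 in Pnt and 8.71, 8.48 and 8.49 in Ras, against 8.02, 7.84 and 7.78 in wild type. Pnt exceeded Ras by 0.63 ± 0.11 (adjusted p = 0.000563). lmd, the gene of the Gli-related factor that defines fusion-competent myoblasts, measured 7.54, 7.73 and 7.72 in Pnt, against 8.52, 8.67 and 8.52 in Ras and 8.18, 8.14 and 8.22 in wild type. Its difference of -0.91 ± 0.26 (adjusted p = 0.0257) was lost without the Ras array 2B (adjusted p = 0.0869) and had a span-adjusted p of 0.197. siz and Ced-12, which encode regulators of small GTPases in fusion, were lower in Pnt at -0.91 and -0.94 (adjusted p = 0.000628 and 0.00168), siz with a span-adjusted p of 0.132. Other probe sets of siz differed by 0.59 and -0.49 and were not called (adjusted p = 0.716 and 0.835). The fourth lower member was gcm, a transcription factor gene of glia and hemocytes (-0.91, adjusted p = 2.79e-05). sns and sing, which encode membrane proteins needed for fusion, were not called, at 0.03 and 0.41.

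Of 13 general mesoderm genes htl and sna were lower in Pnt and none was higher, which is 15.4%, beside 10.2% of all genes. sna, which encodes the zinc finger repressor Snail, measured 7.39, 7.34 and 7.28 in Pnt, against 8.44, 8.42 and 8.41 in Ras and 7.74, 7.70 and 7.74 in wild type. The 3 groups were in steps again, with Pnt lowest, and the difference between Pnt and Ras was -1.09 ± 0.09 (adjusted p = 9.01e-08). twi differed by -0.82 with an adjusted p of 0.479. Of 8 visceral mesoderm genes org-1 and tsh were lower, and of 14 heart and dorsal mesoderm genes only odd was (25% and 7.14% of these lists, beside 10.2% of all genes). tsh, the gene of a zinc finger homeotic factor, had 4.76, 4.63 and 5.51 in Pnt, against 6.81, 6.77 and 6.78 in Ras and 6.02, 6.14 and 6.07 in wild type (difference -1.82 ± 0.32, adjusted p = 0.000546). odd, which encodes a zinc finger factor, differed by -0.94 (adjusted p = 0.0344), a call lost without the Ras array 2B (adjusted p = 0.201).

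Of 13 muscle structural genes, Mlc2 was higher in Pnt, and Act79B and Act87E, read by the actin probe sets named above, were lower. That is 23.1% of the list, beside 10.2% of all genes. Mlc2, a myosin light chain gene, measured 5.81, 5.47 and 6.18 in Pnt, against 4.90, 5.15 and 3.87 in Ras and 5.36, 5.49 and 5.22 in wild type (difference 1.18 ± 0.25, adjusted p = 0.00266). Most other members of the list lay below the array medians.

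Hemocyte, fat body and basement membrane genes were lower in Pnt where they were called: 9 of 21 measured members were lower in Pnt and none higher, with a median of -0.79. That is 42.9% of the list, beside 10.2% of all genes. The mean level of the list was 5.68 to 6.01 in Pnt, 6.50 to 6.62 in Ras and 5.48 to 5.80 in wild type. After the span adjustment 5 were lower and 1 higher, with a median of -0.44, and the median span of these genes was 13948 bases.

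Ppn, which encodes the matrix protein papilin, measured 8.75, 8.78 and 8.88 in Pnt, against 10.79, 10.51 and 10.70 in Ras and 8.46, 8.19 and 8.31 in wild type. Pnt lay close to wild type and Ras far above both, with a Pnt minus Ras difference of -1.86 ± 0.25, 3.63-fold (adjusted p = 2.29e-05). The other probe set of Ppn differed by only 0.04 (adjusted p = 0.981). Its means were 7.16 in Pnt and 7.12 in Ras, well above the array medians, so the probe sets of Ppn disagree. vkg, the gene of a collagen IV chain, had 2.41, 2.11 and 2.17 in Pnt, against 6.03, 4.85 and 5.86 in Ras and 2.31, 2.30 and 1.88 in wild type. Again only Ras differed, and Pnt minus Ras was -3.35 ± 0.66, 10.2-fold (adjusted p = 0.00156). Col4a1, the gene of the other collagen IV chain, averaged 5.99 in Pnt and 6.92 in Ras and was not called (difference -0.93, adjusted p = 0.164). The matrix genes SPARC and Pxn were not called either, at -0.27 and 0.12.

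All 3 laminin chain genes of the list were lower in Pnt. LanB2 measured 7.94, 7.51 and 7.70 in Pnt, against 9.20, 8.97 and 9.08 in Ras and 8.23, 7.72 and 7.79 in wild type (difference -1.37 ± 0.14, adjusted p = 7.21e-07). LanA and LanB1 differed by -0.70 and -0.59 (adjusted p = 0.00395 and 0.00587), with span-adjusted p-values of 0.349 and 0.444. The cell surface genes drpr, which encodes an engulfment receptor, and Pvr, which encodes a receptor tyrosine kinase of hemocytes, differed by -1.04 and -0.81 (adjusted p = 1.69e-07 and 0.00498), Pvr with a span-adjusted p of 0.206. srp, the GATA factor gene of blood and fat body, differed by -0.98 (adjusted p = 0.0172), a call lost without the Pnt array 2C (adjusted p = 0.0916) and with a span-adjusted p of 0.186. The mature hemocyte markers Hml and NimC1 were near the bottom of the scale, with means of 1.21 and 1.55 in Pnt and 1.44 and 0.53 in Ras, and were not called.

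Of 17 Notch pathway and target genes measured, 8 were lower in Pnt and 1 was higher, so 52.9% were called, beside 10.2% of all genes. Their median difference was -0.34. These genes are short, with a median span of 1013 bases, and after the span adjustment 9 were lower and none higher.

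E(spl)m4-BFM, a Bearded family gene of the E(spl) complex, measured 8.61, 8.46 and 8.64 in Pnt, against 9.99, 9.81 and 9.99 in Ras and 8.77, 9.03 and 9.06 in wild type. Ras lay above wild type and Pnt below it without overlap, and the difference was -1.37 ± 0.12, 2.58-fold (adjusted p = 1.07e-07). E(spl)m7-HLH, the gene of a bHLH repressor, had 9.54, 9.62 and 9.78 in Pnt, against 10.31, 10.30 and 10.46 in Ras and 9.85, 10.03 and 10.15 in wild type. It took the same order, with a difference of -0.71 ± 0.08 (adjusted p = 5.79e-06).

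numb, whose product restrains Notch in asymmetric divisions of muscle progenitors, measured 4.92, 5.10 and 5.02 in Pnt, against 6.63, 6.29 and 6.60 in Ras and 6.06, 5.81 and 5.55 in wild type (difference -1.49 ± 0.16, adjusted p = 1.58e-06). Brd, another Bearded family gene, had 8.37, 8.09 and 8.14 in Pnt, against 9.29, 9.18 and 9.35 in Ras and 8.80, 9.31 and 9.05 in wild type, so here only Pnt stood apart (difference -1.07 ± 0.10, adjusted p = 6.14e-07). The remaining lower members were fng, which encodes a glycosyltransferase that modifies Notch, at -1.64, E(spl)mbeta-HLH at -0.39, Ocho at -0.38 and Tom at -0.34. E(spl)mdelta-HLH was the only higher member, at 0.59 (adjusted p = 0.00436), with a span-adjusted p of 0.0717. E(spl)malpha-BFM averaged 10.23 in Pnt and 10.11 in Ras, both called above 9.14 in wild type, and was not called between the 2 (adjusted p = 0.645).

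**Figure D4:**
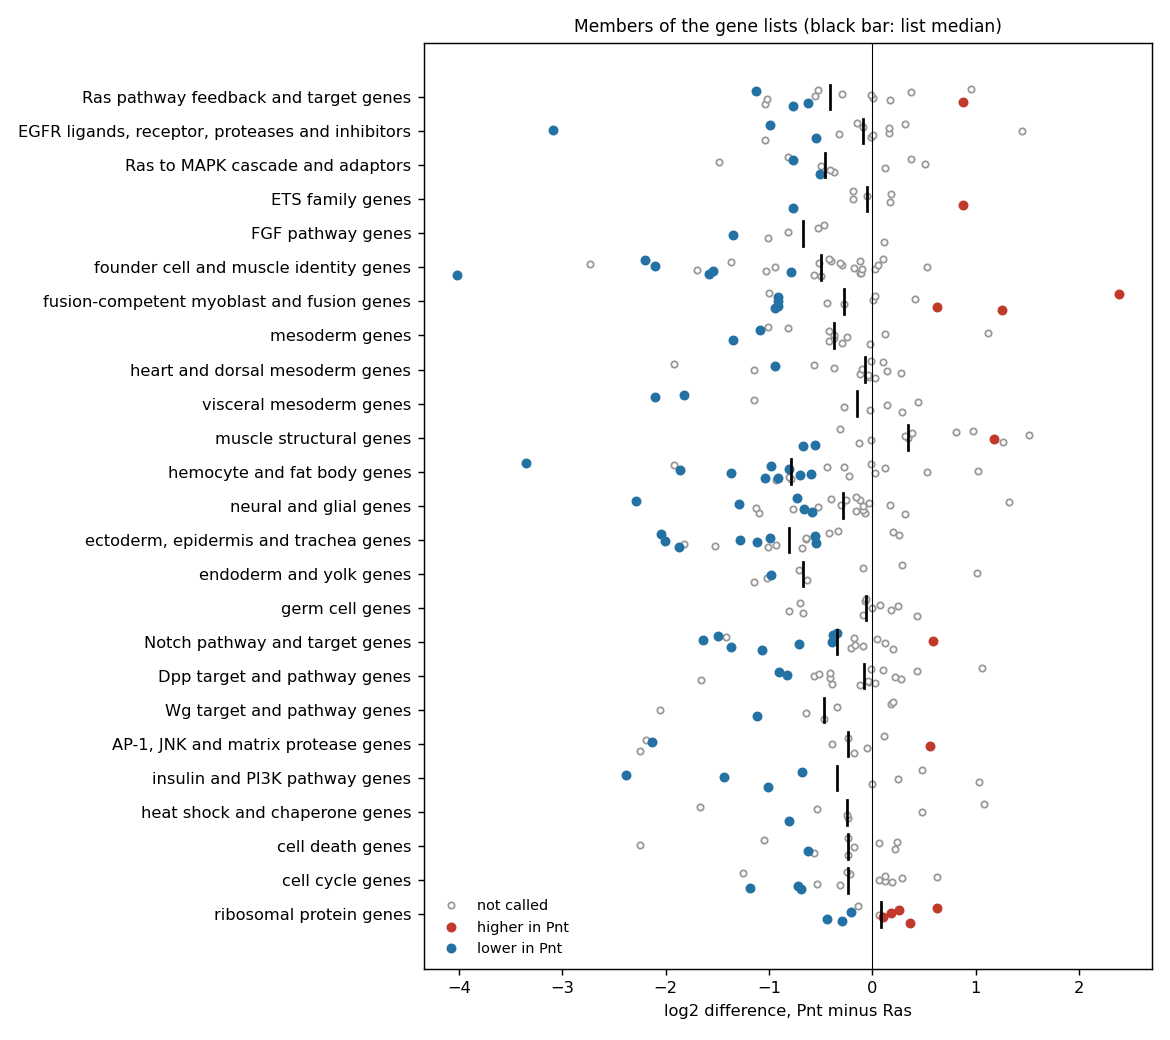
Log2 difference, Pnt minus Ras, of each measured member of the 25 gene lists, with red points called higher in Pnt, blue points called lower, open points not called and a black bar at the list median. Blue points outnumber red ones among founder, hemocyte, ectoderm and Notch genes, whereas fusion-competent and ribosomal protein genes have called members on both sides.

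Genes of ectoderm, epidermis and trachea, a check for cells from outside the mesoderm, were lower in Pnt in 8 of 20 cases and higher in none, with a median of -0.81. That is 40% of the list, beside 10.2% of all genes, and the median was -0.47 after the span adjustment. Their mean level was 3.86 to 4.42 in Pnt, 4.88 to 5.29 in Ras, 5.11 to 5.31 in wild type GFP-positive cells and 5.80 to 6.04 in wild type GFP-negative cells. Of the defining genes, en averaged 3.96 in Pnt and 5.08 in Ras, grh 1.79 and 3.79, and crb 2.38 and 3.91. The means of grh and crb lay below the array medians in both groups, and crb was not called (adjusted p = 0.212). The part of other cells in the sorted samples was not tested. shg, the E-cadherin gene, measured 2.09, 4.24 and 4.47 in Pnt, against 5.40, 5.83 and 5.72 in Ras and 5.42, 5.31 and 5.22 in wild type. Ras and wild type overlapped and Pnt lay below both (Pnt minus Ras -2.05 ± 0.41, adjusted p = 0.00185).

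cora, which encodes a septate junction protein, differed by -1.87 (adjusted p = 0.00731), Nrg, the neuroglian gene, by -0.99 (adjusted p = 0.00383), and rib, a gene of tracheal morphogenesis, by -0.56 (adjusted p = 0.00104). Span-adjusted p-values were 0.0244 for cora, 0.184 for Nrg and 0.769 for rib, and 3 members of the list were lower after that adjustment. The cora call was also lost without the Pnt array 2B (adjusted p = 0.056).

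Of 22 neural and glial genes 5 were lower in Pnt and none higher, with 22.7% called, beside 10.2% of all genes. The list had a median of -0.28 and a mean level of 4.58 to 4.72 in Pnt, 4.93 to 5.20 in Ras and 4.82 to 5.19 in wild type. pros, the gene of a neural homeobox factor, had 3.08, 4.21 and 3.87 in Pnt, against 5.96, 5.95 and 6.11 in Ras and 5.98, 3.01 and 5.90 in wild type. The Pnt and Ras arrays did not overlap (difference -2.29 ± 0.58, adjusted p = 0.0122), although 1 wild type array was as low as Pnt, and without the Pnt array 2A the adjusted p was 0.0646. nerfin-1, brat and elav, genes of neuronal differentiation and of neuroblast division, differed by -1.29, -0.58 and -0.66, and these calls were lost without the Pnt array 2C for nerfin-1 and brat (adjusted p = 0.178 and 0.118) and without the Ras array 2B for elav (adjusted p = 0.214). The span-adjusted p was 0.857 for brat and 0.564 for elav. Of 8 endoderm and yolk genes only srp was lower, which is 12.5%. Of 11 germ cell genes none was called by limma (0 at an unadjusted p under 0.05), krimp having the smallest p (difference -0.67, adjusted p = 0.696).

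Of 14 cell cycle genes 3 were lower in Pnt and none higher, which is 21.4%, beside 10.2% of all genes. CycB3, a mitotic cyclin gene, measured 7.81, 7.89 and 7.74 in Pnt, against 9.05, 9.01 and 8.94 in Ras and 9.03, 8.90 and 8.98 in wild type. Ras and wild type overlapped and Pnt lay below both, with a Pnt minus Ras difference of -1.18 ± 0.10, 2.27-fold (adjusted p = 9.01e-08). CycB, the gene of another mitotic cyclin, had 8.90, 9.12 and 9.22 in Pnt, against 9.78, 9.75 and 9.80 in Ras and 10.05, 9.91 and 9.96 in wild type, with Pnt again lowest and a difference of -0.69 ± 0.09 (adjusted p = 1.1e-05). The replication genes Mcm2, Mcm5 and PCNA were called below wild type in both Pnt and Ras and not between them, with Pnt minus Ras differences of 0.12, 0.29 and -0.22, although PCNA was called lower under the span adjustment (-0.34, adjusted p = 0.00323). CycD differed by -0.72 (adjusted p = 0.0345), and lost its call without the Pnt array 2B (adjusted p = 0.21).

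Of 8 insulin and PI3K pathway genes 4 were lower in Pnt, with a list median of -0.34. That is 50% of the list, beside 10.2% of all genes, and after the span adjustment 2 were lower and the median was -0.01. ImpL2, whose product binds insulin-like peptides outside the cell, measured 6.39, 6.00 and 5.30 in Pnt, against 7.42, 7.12 and 7.49 in Ras and 6.87, 6.75 and 7.06 in wild type (difference -1.44 ± 0.18, adjusted p = 1.21e-05). InR, the insulin receptor gene, had 1.43, 1.68 and 1.91 in Pnt, against 4.61, 3.85 and 3.69 in Ras and 1.91, 3.29 and 2.04 in wild type. Ras lay above the other groups (difference -2.38 ± 0.58, adjusted p = 0.00947), and without the Ras array 2A the adjusted p was 0.0565. The kinase genes Akt and S6k differed by -1.01 and -0.68 (adjusted p = 0.00454 and 0.0254), with span-adjusted p-values of 0.0634 and 0.525. Without the Pnt array 2B the adjusted p of S6k was 0.123.

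Shares near the 10.2% of all genes were called among Dpp genes (11.1%), Wg genes (14.3%), heat shock genes (14.3%) and cell death genes (10%), while 22.2% of AP-1, JNK and protease genes and 80% of the ribosomal protein genes were called. Of 18 Dpp genes the receptor genes tkv and put were lower, at -0.90 and -0.83 (adjusted p = 0.00133 and 0.0436), with span-adjusted p-values of 0.125 and 0.249, and put lost its call without the Pnt array 2C (adjusted p = 0.18). Of 7 Wg genes only en was lower, at -1.12 (adjusted p = 0.0228), with a span-adjusted p of 0.0787 and an adjusted p of 0.156 without the Pnt array 2B. Among 9 AP-1, JNK and matrix protease genes, Jra, the Jun gene, was higher at 0.56 (adjusted p = 0.0268) and Mmp2, a matrix metalloprotease gene, lower at -2.13 (adjusted p = 0.0161), and both calls were lost without 1 array (adjusted p = 0.104 without the Ras array 2A and 0.111 without the Ras array 2C). Jra had a span-adjusted p of 0.0506. The chaperone gene DnaJ-1 was the only lower one of 7 heat shock genes, at -0.81 (adjusted p = 5.55e-05), and Dcp-1, a caspase gene, the only lower one of 10 cell death genes, at -0.62 (adjusted p = 0.0306, or 0.207 without the Pnt array 2B). Of 10 ribosomal protein genes measured, out of 36 listed, 5 were higher and 3 lower. All moved by small steps between -0.44 for RpL3, whose span-adjusted p was 0.0694, and 0.63 for RpS29.

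The 15 genes with the largest fall and the 15 with the largest rise were taken among called genes with non-overlapping groups. The lower ones differed by 2.96 to 4.19 log2 units and the higher ones by 2.35 to 3.12. Many were dim: the lower of the 2 group means was under 4.166, the lowest array median of set 2, for 15 of 15 and 13 of 15 genes. No detection calls were used here, so the sizes of these differences are uncertain at the dim end.

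esg, which encodes a zinc finger factor of the Snail family, had the largest difference. It measured 3.12, 2.98 and 2.34 in Pnt, against 6.91, 7.10 and 7.02 in Ras and 5.05, 5.10 and 4.74 in wild type. Ras lay above wild type and Pnt below it with no overlap, and Pnt minus Ras was -4.19 ± 0.32, 18.3-fold (adjusted p = 2.66e-08). mwh, a gene of wing hair formation, had 1.61, 1.40 and 1.72 in Pnt, against 5.41, 5.16 and 4.72 in Ras and 1.95, 2.04 and 2.15 in wild type, so it was high only in Ras (difference -3.52 ± 0.31, adjusted p = 1.86e-07). cic, the gene of the HMG-box repressor Capicua, which MAPK signalling relieves, had 2.40, 2.65 and 2.81 in Pnt, against 5.96, 6.06 and 5.86 in Ras and 5.61, 4.47 and 5.92 in wild type. Pnt alone was low (difference -3.34 ± 0.47, adjusted p = 4.1e-05), but another probe set of cic differed by 0.50 with an adjusted p of 0.692.

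Other genes low only in Pnt were LManII, which encodes a lysosomal mannosidase (difference -3.48 ± 0.54), the cadherin gene Cad87A (-3.28 ± 0.45), the small GTPase gene Rab35 (-3.01 ± 0.33) and CG15209 (-3.32 ± 0.42). They were called below wild type in Pnt, at -3.10, -2.60, -2.47 and -2.66, and were not called in Ras. CG2233 and CG2519 were called above wild type in Ras, by 2.25 and 2.42, and were not called in Pnt, and CG9338 was called both below wild type in Pnt, at -1.99, and above it in Ras, at 1.82. CG10413 differed by -3.0 ± 0.35 and CG8501 by -2.96 ± 0.70.

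Among the genes higher in Pnt, CG4250 had the largest difference. It measured 7.44, 6.61 and 7.18 in Pnt, against 5.41, 3.07 and 3.39 in Ras and 4.24, 3.22 and 3.28 in wild type (difference 3.12 ± 0.51, 8.69-fold, adjusted p = 0.000234). Pnt alone was called above wild type. The same held for NimB1, a gene of the Nimrod family, with 7.09, 6.74 and 6.72 in Pnt, against 2.78, 4.69 and 5.05 in Ras and 5.36, 4.77 and 5.09 in wild type (difference 2.67 ± 0.42, adjusted p = 0.000173). Ugt37C2, a UDP-glycosyltransferase gene, CG14022 and the neuropeptide gene Orcokinin were also called above wild type in Pnt, by 2.51, 2.01 and 2.69.

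Another pattern was a call below wild type in Ras alone. Pgm1, the phosphoglucomutase gene, measured 4.78, 5.03 and 4.13 in Pnt, against 1.38, 1.73 and 1.71 in Ras and 5.41, 5.39 and 5.68 in wild type. It fell by 3.88 in Ras against wild type (adjusted p = 8.01e-05), and Pnt minus Ras was 3.04 ± 0.53, 8.22-fold (adjusted p = 0.000483). The Pnt arrays of Pgm1 also lay below wild type, without a call (-0.84, adjusted p = 0.443). gol, which encodes the RING finger protein Goliath, had 4.96, 4.91 and 4.29 in Pnt, against 2.86, 3.51 and -0.12 in Ras and 5.12, 4.84 and 4.97 in wild type, with 1 Ras array far below the others (difference 2.64 ± 0.62, adjusted p = 0.00685). sug, CG7730 and Acp76A, the gene of a serpin, were called below wild type in Ras too, at -2.57, -2.49 and -2.46. The last 5 genes, RpS28a, CheA75a, CG10494, CG9458 and Ance-3, were called against wild type in neither group, and each lost its call between Pnt and Ras without 1 array. The highest adjusted p was 0.145 for RpS28a and 0.0651 for CheA75a without Pnt 2C, 0.144 for CG10494 without Ras 2A, 0.057 for CG9458 without Ras 2B and 0.167 for Ance-3 without Pnt 2B. Acp76A and Orcokinin lost theirs as well, with adjusted p-values of 0.12 without Pnt 2C and 0.222 without Ras 2A, and had span-adjusted p-values of 0.0585 and 0.0704.

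**Figure D5:**
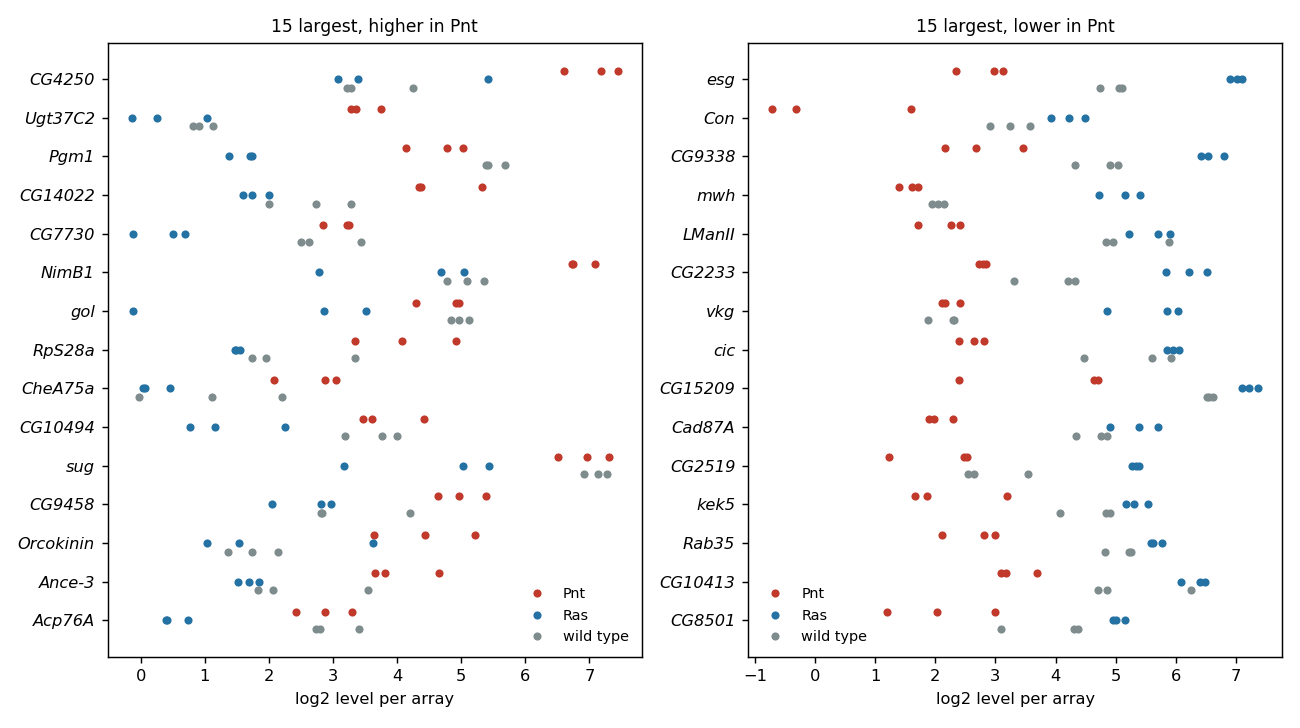
Log2 level on each array of the 15 genes with the largest rise (left) and the 15 with the largest fall (right) in Pnt against Ras, ordered by size from top to bottom, with Pnt in red, Ras in blue and wild type in grey. Wild type sits beside Ras for genes such as cic and LManII, beside Pnt for mwh and vkg, and between both for esg and CG9338.

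The same Ras transgene was also measured on top of Arm, in arrays that belong to neither group above. For Arm+Ras minus Arm 644 probe sets were called higher (4.61%) and 361 lower (2.58%). Of the 792 probe sets lower in Pnt than in Ras, 351 (44.3%) were higher in Arm+Ras than in Arm, which is 54.5% of the 644, and 13 were lower. Of the 573 higher in Pnt than in Ras, 182 (31.8%) were lower in Arm+Ras than in Arm, which is 50.4% of the 361, and 4 were higher. Calls of this comparison moved with gene span as well, with 27 higher and 187 lower in the group with the shortest spans and 236 higher and 25 lower in the group with the longest, and the part of span in the overlap was not tested. The actin 3′ minus 5′ difference was 0.88, 0.76 and 0.91 on the Arm+Ras arrays against 1.14, 1.15 and 1.22 on the Arm arrays. The groups again did not overlap, and the group with Ras was lower. Low values were not confined to groups with Ras, since the Tkv gain of function arrays had 0.53, 0.68 and 0.53. The part of the actin difference in the overlap of calls was not tested either.

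Single genes show where the 2 comparisons met. In Arm+Ras minus Arm, esg rose by 4.67 (adjusted p = 7.97e-09), sna by 1.29, numb by 1.38, kn by 1.79, org-1 by 1.44, htl by 2.03 and Ppn by 1.11, while blow fell by 1.55 (adjusted p = 3.7e-09), Pgm1 by 2.27 and sug by 2.32. edl and aop rose by 1.45 and 1.39. Crk went the other way from its response to Ras alone, with -0.62 in Arm+Ras minus Arm (adjusted p = 0.00104) and 0.68 in Ras minus wild type (adjusted p = 0.00061). mwh, vkg and CG9338, which had been above wild type in Ras, were not called, at 0.22, 1.64 and -0.04. For vkg the levels were 5.86, 5.92 and 5.89 on the Arm+Ras arrays, against widely spread levels of 6.12, 1.87 and 4.76 on the Arm arrays.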

How the data were processed

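The authors deposited a log2 value per probe set, made with affy, per the submitters' processing notes. Its version, background correction, normalization and summary method are not given in the sources used here, and base 2 is an inference from the range of the values. The 3 numbered sets differ in median, so only the 24 arrays of set 2 were used, in 8 groups of 3. These include the Tkv gain of function and wg loss of function arrays, which share in the estimate of the spread. On the wg loss arrays the eIF-4a 3′ minus 5′ difference was 3.31, 3.59 and 3.29, and a fit without them is given in the closing section. After removal of 44 control probe sets, all remaining 13966 entered the tests, dim ones included. Of these, 12443 carry 1 gene symbol, 327 several and 1196 none. Where a gene has several probe sets, the brightest over set 2 stands for it. For Egfr, drpr, rib and tkv another probe set was also lower in Pnt but was not called (-0.31, -0.66, -0.94 and -0.75).

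limma 3.58.1 in R 4.3.3 fitted 1 mean per group over set 2 (lmFit) with moderated variances and a trend on the level (eBayes). P-values are two-sided and adjusted by Benjamini-Hochberg over all probe sets, with a threshold of 0.05. The calls were tested on simulated data, in which many changes, large ones included, were missed, so a probe set without a call may have changed. The letters A to C were not taken to pair the arrays, although the letter B arrays share low poly-A controls: deviations of same-lettered Pnt and Ras arrays from their group means correlated at 0.04, 0.02 and 0.02.

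Gene spans came from RefSeq Release 6 (99.6% of probe sets with 1 symbol had one), and loess removed each array's trend on log2 span and level in an alternative. Genes named are the 15 largest differences in each direction, the called members of 5 lists (Ras targets, EGFR, ETS, founder, fusion), up to 4 called members of each other list (1 where none was called) and 6 defining markers. Further list members are named to account for the lists. Shares are of the members measured and not of those listed. For example, 8 of 15 insulin and PI3K genes, 7 of 15 Wg genes, 7 of 17 heat shock genes and 13 of 20 fusion genes were measured. Mef2, tin and mbc were listed but not measured. The members, lists and rules were chosen with earlier results of these data known. Alternatives are given in the closing section. Tables and figures were made in Python 3.11.15 (matplotlib 3.10.9, pandas 2.3.3, numpy 2.4.6). The genes pnt, Ras85D and arm were not analysed here.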

Additional observations from a re-analysis of the deposited data

How the results depend on the processing

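The main count of 1365 probe sets called between Pnt and Ras was set beside 17 alternatives and 6 fits that left out 1 array each. It was 1038 when the variance trend was dropped, 1012 in a fit of the 6 Pnt and Ras arrays alone, 1347 after quantile normalization (602 higher and 745 lower), 1365 with arrays centred on their medians (644 higher and 721 lower) and 1555 without the wg loss arrays, the last chosen after seeing the data. With the letters as a replicate block it was 1517, 1349 of them shared with the 1365. Without the letter A arrays it fell to 873, with 344 higher, and without the letter B arrays, chosen after seeing their poly-A controls, to 969, 851 of them among the 1365. A threshold of 1.5-fold left 371 higher. With the actin 3′ minus 5′ difference as a covariate, chosen after seeing the data, it fell to 10, with 3 higher and 7 lower, 1 of the 90 called named genes kept its call, and gol and S6k changed sign, to -0.1 and 0.1. Removal of the array trends on gene span left 370 higher, and on span and level 452 lower, both chosen after seeing the data. Without single arrays the count ran from 1030 to 1225, with 439 to 504 higher and 583 to 773 lower, and 62 of 90 named genes kept their calls throughout. kek1, never called, changed sign with array weights (-0.02), without the letter B arrays (-0.11), without Pnt 2C (-0.27) and without Ras 2B (-0.25), and lay between -0.27 and 0.17 when single arrays were left out. Ras minus wild type gave 394 calls without the variance trend, 156 of them lower, in place of 641. Apart from the span and actin fits, whose construction is described above, the cause of these shifts was not tested. Dim probe sets without detection calls limit the sizes of the largest differences.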
